A study of Mus musculus with 6 samples.

Results

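The enzymes that remove superoxide and peroxides, together with those that make, recycle and use glutathione, were followed in mouse mammary fat pads with and without Pxmp2. The group held 40 genes, listed by name and not by a measured value, though earlier results of these data were known. A probe set, the group of short probes that reads a transcript on an Affymetrix array, was taken for a gene when the platform annotation gave it that gene's symbol and no other. By this rule 37 of the 40 genes had 74 probe sets, out of 34945 probe sets with a single symbol and 45037 in all. The 5 probe sets of Prdx1 also carry a second symbol and were left out, and no probe set in the annotation carries the symbol Prdx5 or Prdx6.

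Both groups were female mice of the C57BL/6J background. The 3 wild-type (WT) mice carried Pxmp2, and the 3 others were Pxmp2-/-; how the allele was disrupted is not stated in the labels. All 6 had lost their ovaries at 21 days of age, received estradiol at 31 days and were sampled 8 h later, so no mouse stands for an untreated gland. RNA came from whole fat pads 4 and 9, and a lower signal cannot be told apart from a smaller number of the cells that express a gene. Pxmp2 makes a channel for small solutes in the membrane of the peroxisome. The study asked whether that channel is needed for the mammary epithelium to develop.

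Superoxide is turned into hydrogen peroxide by superoxide dismutases. The peroxide is then removed by catalase inside peroxisomes, and by glutathione peroxidases and peroxiredoxins mostly elsewhere. The peroxiredoxin encoded by Prdx5 is also found in peroxisomes, but this gene could not be read here. Glutathione peroxidases draw on glutathione, which glutathione reductase restores, and peroxiredoxins mostly draw on thioredoxin, which thioredoxin reductases restore. Many of these genes are switched on by the transcription factor Nrf2, the product of Nfe2l2, which Keap1 holds back until cells meet oxidants or electrophiles. Peroxisomal oxidases release hydrogen peroxide, which is why this enzyme group bears on a mouse without a peroxisomal channel.

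Nrf2 binds antioxidant response elements, so the promoters of the group were searched for the core letters TGACNNNGC on both strands, in the 250 bases before each gene's start. The sequences are those of RefSeq for the build GRCm38.p6, and 34 of the 40 genes matched. Hmox1, Gclc, Gsr, Sod3, Prdx6 and Gsta4 had no entry. The core stood in the window of 7 of the 34 genes (20.6%), against 11.5% of all 27025 genes with such windows. Prdx1, whose probe sets were left out, was among the 7. The matches of the 6 genes that were measured are shown on the gene's strand, 5′ to 3′, with the 9 matching bases in capitals. These genes are shown because their searched windows hold the Nrf2 core letters.
Gclm, chr3:122245411-122245443, plus strand: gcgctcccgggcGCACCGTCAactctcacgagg
Gstm5, chr3:107895800-107895832, plus strand: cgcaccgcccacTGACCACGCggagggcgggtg
Mgst1, chr6:138140459-138140491, plus strand: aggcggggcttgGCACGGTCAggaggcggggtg
Nfe2l2, chr2:75704883-75704913, minus strand: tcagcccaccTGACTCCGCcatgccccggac
Sod1, chr16:90220694-90220726, plus strand: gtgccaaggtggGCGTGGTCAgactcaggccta
Txnrd1, chr10:82859102-82859134, plus strand: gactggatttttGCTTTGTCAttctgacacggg
In Gstm5 and Nfe2l2 the core reads forward, and in the other 4 as its reverse complement. A match describes letters and is not a measured binding site.

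Pxmp2 read 2643, 2465 and 2797 in the WT mice and 308, 262 and 260 in the Pxmp2-/- mice, in arbitrary intensity units, so the 6 labels matched the gene's signal. The labels do not say whether this probe set reads a deleted stretch. The medians of the 6 arrays ran from 98.5 to 105 and their maxima from 20504 to 22654. All 8 adipocyte marker genes with a probe set were above the level filter used for testing. Of the epithelial markers with a probe set, 4 of 9 luminal and 3 of 7 basal genes were above it; Krt19 was among these, while Krt8, Krt18, Krt5, Krt14 and Krt17 were not. Summed intensities of 11 endothelial marker genes ran from 20569 to 22173 in WT mice and from 17020 to 19399 in Pxmp2-/- mice, and their part in the differences given here was not tested. The number of arrays, 3 per group, limits the precision of every value. Nothing in the labels names a batch, and p-values measure the spread between these mice.

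None of the antioxidant enzymes differed between genotypes past the threshold. Of their 74 probe sets, 67 from 35 genes were bright enough to test, and 0 reached a limma adjusted p under 0.05 (adjusted over all 27022 tested probe sets). The smallest adjusted p among them was 0.204. Over all tested probe sets 0.0629% passed, 17 in number. At an unadjusted p under 0.05, 5 antioxidant probe sets were higher in Pxmp2-/- mice (7.46%, against 6.12% of all tested) and 3 were lower (4.48%, against 10.5%). The split over all tested probe sets depended on scaling, with 1655 higher and 2842 lower as deposited but 2128 and 2129 after quantile normalization. The antioxidant counts were then 6 and 3, and the 3 lower probe sets were not all the same as before. In 8 antioxidant probe sets all Pxmp2-/- mice read above all WT mice (11.9%, against 7.73% of all tested). In 7 all of them read below (10.4%, against 15.1%).

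The measurements were tight enough to bound most differences. A log2 difference here is Pxmp2-/- minus WT on the log2(intensity + 16) scale, which understates changes of dim transcripts. Its 95% interval comes from limma and holds for a single probe set at a time. Limma draws the variance of each probe set toward a value estimated from all tested probe sets. Very small spreads are thereby raised and very large ones lowered. The antioxidant probe sets had a median log2 difference of 0.0096, against -0.033 over all tested, and single values ran from -0.46 to 0.57. The median size of the difference was 0.075 for them and 0.13 for all tested. Their spread between mice of a group was also smaller, with a median SD of 0.114 log2 against 0.14. For 59 of the 67 (88.1%) the interval stayed inside a 1.5-fold change in either direction, against 79.3% of all tested probe sets. Each of the 35 tested genes had at least 1 such probe set, which does not bound the gene where its probe sets differ. For Mgst3 and Keap1 it was only the dimmer one. Their bright probe sets had intervals from 0.16 to 0.74 and from -0.68 to 0.17.

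**Figure D1:**
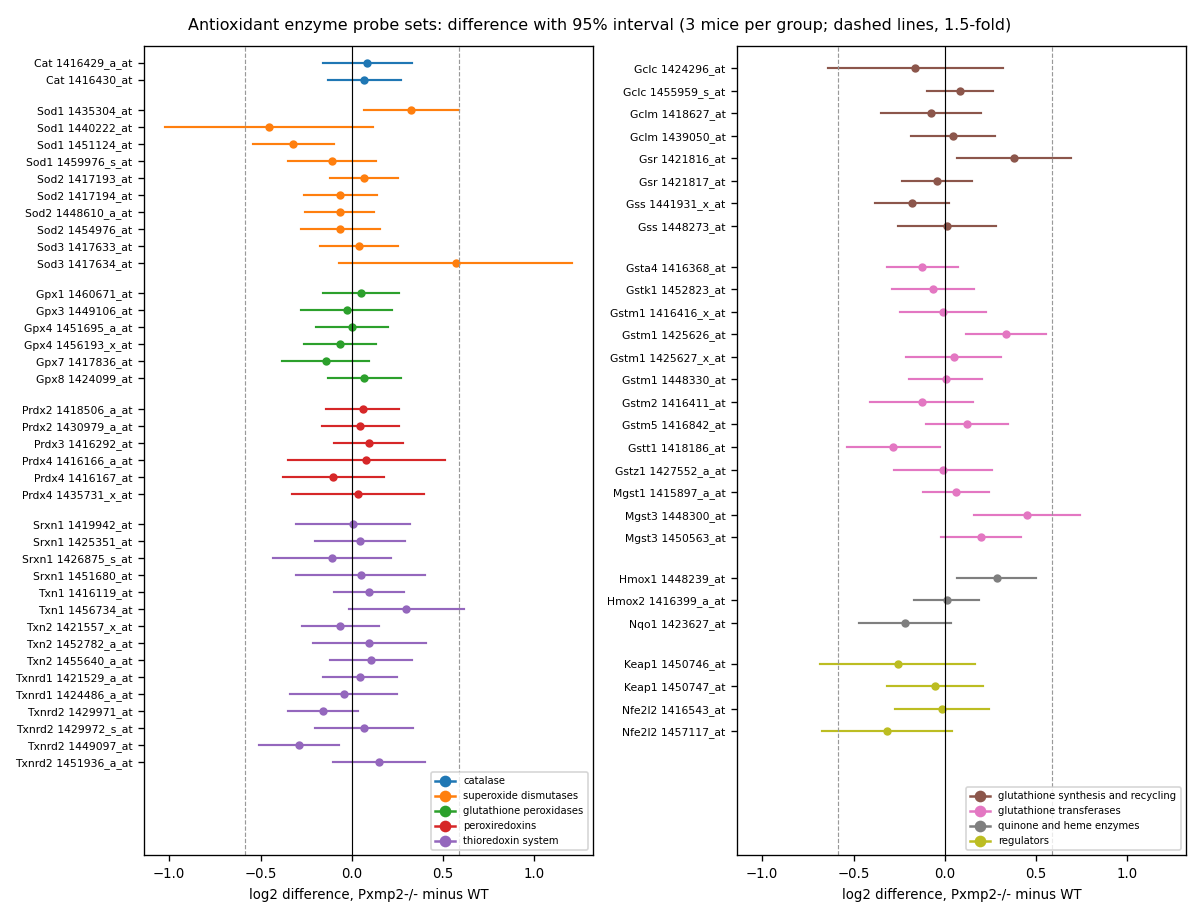
Log2 difference (Pxmp2-/- minus WT, x axis) of each of the 67 tested antioxidant probe sets, with its 95% interval from limma, ordered by enzyme family; dashed lines mark a 1.5-fold change and n = 3 mice per group. Most points lie close to 0, and the widest intervals belong to probe sets of Sod3 and Sod1.

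**Figure D2:**
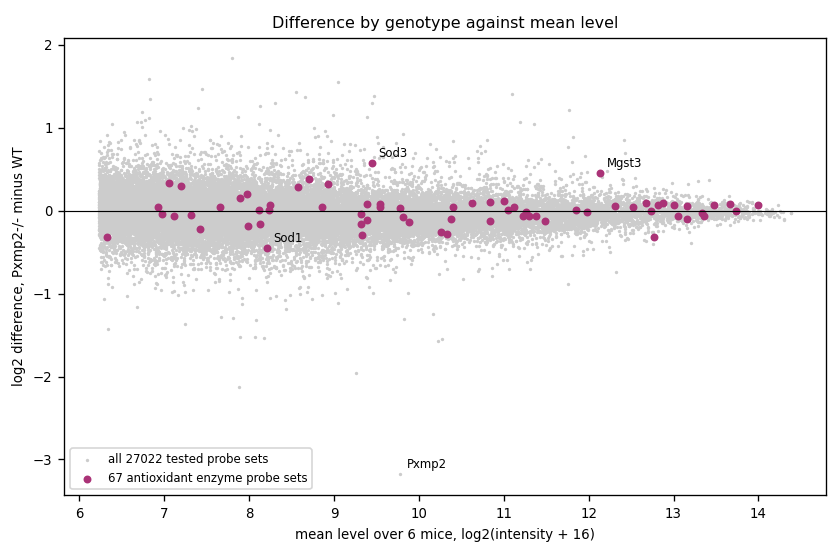
Log2 difference (y axis) against mean level over 6 mice (x axis, log2(intensity + 16)) for all 27022 tested probe sets in grey and the 67 antioxidant ones in purple. Pxmp2 lies at -3.18, and the antioxidant probe sets run from -0.46 (Sod1) to 0.57 (Sod3).

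Catalase, the main peroxide-removing enzyme of the peroxisome, was bright and nearly level. Its probe set 1416429_a_at read 12143, 11615 and 14043 in WT mice and 13020, 12641 and 14340 in Pxmp2-/- mice. The groups overlapped, and the highest WT mouse lay above all but 1 Pxmp2-/- mouse. The log2 difference of Cat was 0.08 with a 95% interval from -0.16 to 0.33 (adjusted p = 0.702). Its other probe set, 1416430_at, differed by 0.07 (-0.13 to 0.27). Both belong to the 6 antioxidant probe sets with a mean above 10000, where intensities may be compressed. The others of these read Gpx3, Gpx4 and Mgst1.

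Of the other members, the products of Sod1, Prdx5 and Gstk1 are also found in peroxisomes. Prdx5 had no probe set, and Sod1 is described with the superoxide dismutases. The kappa-class transferase gene Gstk1, whose product is also found in mitochondria, was level as well. It is counted below with the mitochondrial enzymes. Gstk1 read 2676, 2831 and 2590 in WT mice and 2370, 2832 and 2557 in Pxmp2-/- mice. The groups overlapped over nearly their whole range. The log2 difference was -0.06 (-0.29 to 0.16, adjusted p = 0.763).

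The superoxide dismutases held the widest differences of the group, and the probe sets of a gene differed in size and, for Sod1 and Sod2, in sign. Sod1 encodes the copper and zinc enzyme of the cytosol, which is also found in peroxisomes. Its probe set 1451124_at read 7638, 7684 and 8085 in WT mice and 6916, 6013 and 5849 in Pxmp2-/- mice. All Pxmp2-/- mice lay below all WT mice, by a log2 difference of -0.32 ± 0.09 (SE), adjusted p = 0.215. The probe set 1435304_at of the same gene went the other way, with 465, 436 and 360 in WT mice and 541, 499 and 544 in Pxmp2-/- mice. Here all Pxmp2-/- mice lay above all WT mice, with a log2 difference of 0.32 ± 0.11 (adjusted p = 0.242). The brightest Sod1 probe set, 1459976_s_at, read 9365, 8784 and 10415 in WT mice and 9683, 8361 and 8476 in Pxmp2-/- mice. Its groups overlapped, with a difference of -0.11 (adjusted p = 0.622). The remaining tested one, 1440222_at, differed by -0.46 and rested on Pxmp2-/- mouse 3, which read 152 where the other 5 mice read 283 to 397. Of the 4 tested Sod1 probe sets 3 were thus lower and 1 higher, and none passed.

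Sod2, the manganese enzyme of mitochondria, had 4 tested probe sets with differences between -0.07 and 0.07. Sod3, the secreted form, lies on chromosome 5 as Pxmp2 does, the only member of the 40 to do so. Its probe set 1417634_at, singled out here after its values were seen, read 501, 710.5 and 482 in WT mice and 530, 980.5 and 1105 in Pxmp2-/- mice. Pxmp2-/- mice 2 and 3 lay above all WT mice, while mouse 1 fell among them. The difference was 0.57 ± 0.27 (95% interval -0.07 to 1.21, adjusted p = 0.337), the largest of the group and the one with the widest spread between mice. The brighter Sod3 probe set 1417633_at differed by 0.04 (-0.17 to 0.25).

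The glutathione peroxidases were level. Gpx1, the selenium enzyme of cytosol and mitochondria, read 8731, 9442 and 8743 in WT mice and 8605, 9762 and 9550 in Pxmp2-/- mice. Its groups overlapped and its log2 difference was 0.05 (-0.16 to 0.26). Differences were -0.03 for the secreted Gpx3, 0.00 and -0.07 for Gpx4, which reduces lipid peroxides in membranes, and -0.14 and 0.07 for Gpx7 and Gpx8 of the endoplasmic reticulum. Gpx2, best known from the gut epithelium, was too dim to test, at 4.73 to 25.9 over the 6 mice. Of the 6 tested probe sets 3 were higher and 3 lower as deposited, and 2 and 4 after median centring.

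The measured peroxiredoxins differed by no more than 0.10 in either direction. Prdx2 of the cytosol had differences of 0.06 and 0.05, and Prdx3, the mitochondrial form, 0.09 (-0.10 to 0.28). Prdx4, which works in the endoplasmic reticulum, had 3 tested probe sets at 0.08, 0.04 and -0.10. Its 1416166_a_at varied among the mice of a group more than most of the family did, with 558, 543 and 857 in WT mice and 774, 599 and 664 in Pxmp2-/- mice. The highest and the lowest of these values both came from WT mice.

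In the thioredoxin system, the mitochondrial reductase gene Txnrd2 was lower in 2 of its 4 probe sets. The probe set 1449097_at read 716, 653 and 712 in WT mice and 606, 573 and 516 in Pxmp2-/- mice. All Pxmp2-/- mice lay below all WT mice, and the log2 difference was -0.29 ± 0.09 (SE), adjusted p = 0.232. The same separation held for 1429971_at, with a smaller difference of -0.16 (adjusted p = 0.365). The other two overlapped between groups and differed by 0.07 and 0.15.

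The cytosolic partners moved little. Txn1, thioredoxin itself, differed by 0.10 (-0.10 to 0.29) in its bright probe set and by 0.30 (-0.02 to 0.61) in its dim one. The mitochondrial Txn2 had 3 probe sets between -0.06 and 0.10. The cytosolic reductase gene Txnrd1 gave 0.04 and -0.05. Srxn1 encodes sulfiredoxin, which repairs over-oxidised peroxiredoxins and is a well-known Nrf2 target. Its 4 probe sets lay between -0.11 and 0.05.

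Glutathione synthesis showed no common shift. Slc7a11, the cystine carrier that feeds it, was too dim to test in both probe sets, at 7.79 to 41.05 over the 6 mice. Gclc and Gclm are the catalytic and modifier subunits of the rate-limiting ligase. Gclc gave -0.16 and 0.08, and Gclm -0.08 and 0.04. Gss, which completes glutathione, gave -0.18 (adjusted p = 0.336) and 0.01. The Gclc probe set 1424296_at read 728, 618 and 639 in WT mice and 831, 541 and 451 in Pxmp2-/- mice, so that its Pxmp2-/- mice lay on both sides of the WT range.

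Glutathione reductase, the product of Gsr, differed in the dimmer of its 2 probe sets. There 1421816_at read 352, 373 and 324 in WT mice and 375, 500.2 and 515 in Pxmp2-/- mice. Pxmp2-/- mice 2 and 3 stood well above, while mouse 1 was barely above the highest WT mouse. The log2 difference was 0.38 ± 0.13 (SE), adjusted p = 0.248. The other Gsr probe set, 1421817_at, differed by -0.04 with an interval from -0.23 to 0.15.

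Among the glutathione transferases, Mgst3 was higher in Pxmp2-/- mice in both of its probe sets, though neither passed. Mgst3 encodes a membrane enzyme of the endoplasmic reticulum that conjugates leukotriene A4 with glutathione and reduces lipid hydroperoxides. Its probe set 1448300_at read 3792, 4296 and 3481 in WT mice and 4534, 5615 and 5684 in Pxmp2-/- mice. The means were 3856 ± 411 and 5278 ± 645 (SD, n = 3 each). All Pxmp2-/- mice lay above all WT mice, with mouse 1 closest to them. The log2 difference of 0.45 ± 0.12 (SE, 95% interval 0.16 to 0.74) had an adjusted p of 0.204, the smallest of the group. The dimmer 1450563_at read 212, 221 and 226 in WT mice and 272, 229 and 266 in Pxmp2-/- mice. Its groups were separate too, with a difference of 0.20 ± 0.09 (adjusted p = 0.329). Mgst1, a related membrane enzyme, differed by 0.06 (-0.12 to 0.24) at a level near the top of the arrays.

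Gstt1, a theta-class transferase of the cytosol, was lower. It read 1373, 1422 and 1403 in WT mice and 999, 1292 and 1173 in Pxmp2-/- mice. The groups did not overlap, and Pxmp2-/- mouse 1 was the lowest. The difference was -0.28 ± 0.11 (SE), adjusted p = 0.268, and it was -0.18 without Pxmp2-/- mouse 1. After quantile normalization it was -0.23, and no transferase probe set was then lower at an unadjusted p under 0.05. The theta-class neighbours in the list of related genes leaned the same way without passing, with -0.21 for Gstt3 (adjusted p = 0.299) and -0.20 for Gstt2 (adjusted p = 0.304).

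The mu-class genes Gstm1, Gstm2 and Gstm5 lie together on chromosome 3 and are close relatives, so their probe sets may share signal. The dim Gstm1 probe set 1425626_at read 115, 96.2 and 95.7 in WT mice and 129, 135 and 135 in Pxmp2-/- mice. Its groups did not overlap, and it differed by 0.34 ± 0.10 (adjusted p = 0.209). The 3 brighter Gstm1 probe sets lay between -0.01 and 0.05. Gstm2 gave -0.13 and Gstm5 0.12. The alpha-class gene Gsta4, whose product clears the lipid peroxidation product 4-hydroxynonenal, gave -0.12 with separate groups (adjusted p = 0.472). Gstz1, which also serves tyrosine breakdown, gave -0.01.

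Hmox1, which encodes the inducible heme oxygenase, was higher and Nqo1, a quinone reductase, was lower, again without passing. Hmox1 read 304, 323 and 361 in WT mice and 417, 396 and 398 in Pxmp2-/- mice. All Pxmp2-/- mice lay above all WT mice, with a log2 difference of 0.28 ± 0.09 (SE), adjusted p = 0.232. Nqo1 read 165, 152 and 193 in WT mice and 155, 137 and 139 in Pxmp2-/- mice. Its groups overlapped, with a difference of -0.22 ± 0.11 (adjusted p = 0.345). Both are known Nrf2 targets, and here their differences had opposite signs. The constitutive heme oxygenase gene Hmox2 read 2080 to 2134 over all 6 mice, the smallest spread within groups of any tested member.

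Markers of macrophages, cells in which Hmox1 is often abundant, were mostly higher in Pxmp2-/- mice too. The summed intensity of 14 macrophage marker genes was 15225, 14586 and 15707.5 in WT mice and 22517, 17169 and 17709 in Pxmp2-/- mice, so these sums did not overlap. The brightest probe sets of 11 of the 14 genes were higher in Pxmp2-/- mice, and all 14 were above the level filter. Over all tested probe sets 42.7% were higher. Pxmp2-/- mouse 1 had both the highest Hmox1 signal and the highest macrophage sum. Among the WT mice, the lowest sum was that of mouse 2 but the lowest Hmox1 signal that of mouse 1. Lymphocyte markers were higher as well, in the brightest probe sets of all 6 genes above the filter, although the sums of 9 genes overlapped. The part of either cell type in the Hmox1 difference was not tested.

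Neither regulator changed past the threshold. Nfe2l2 read 2727, 2248 and 2397 in WT mice and 2479, 2189 and 2614 in Pxmp2-/- mice in its bright probe set, with overlapping groups. The difference was -0.02 (-0.27 to 0.24), and it turned to 0.02 after quantile normalization. Keap1, the inhibitor, read 1286, 1282 and 1414 in WT mice and 1472, 1080 and 853 in Pxmp2-/- mice. The Pxmp2-/- mice lay on both sides of the WT mice, with a difference of -0.26 ± 0.18 (adjusted p = 0.495). It was -0.07 without Pxmp2-/- mouse 3 and -0.46 without Pxmp2-/- mouse 1. The dim probe sets gave -0.32 for Nfe2l2 (adjusted p = 0.336) and -0.05 for Keap1.

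**Figure D3:**
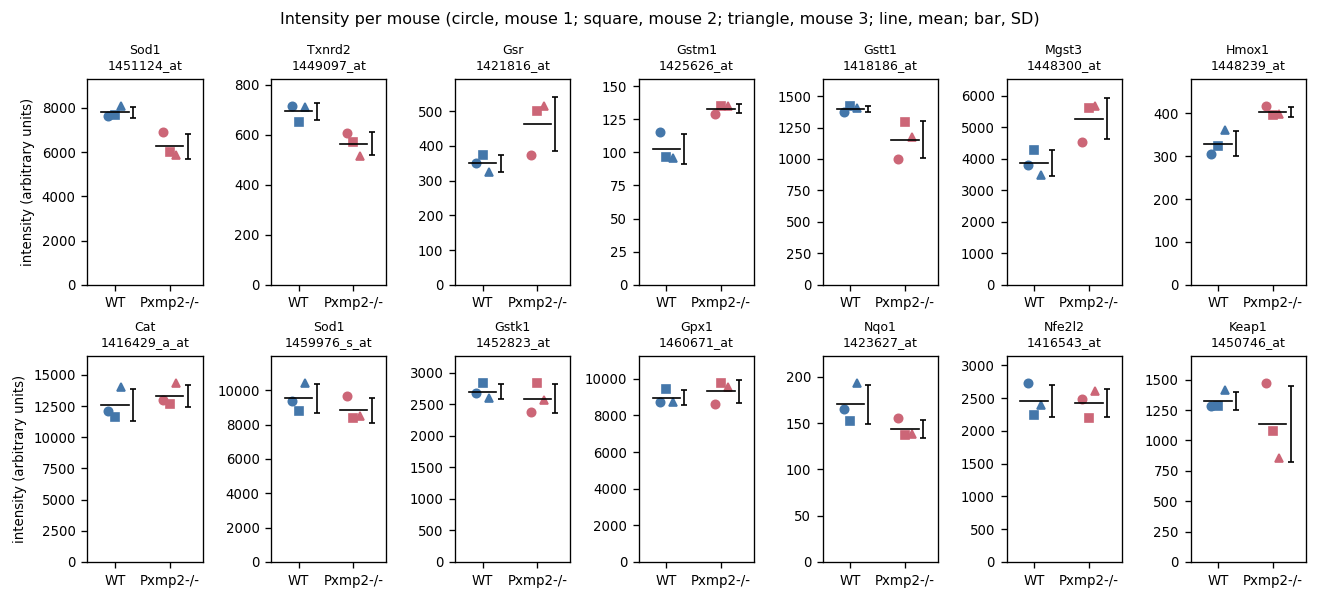
Intensity in arbitrary units (y axis, from 0) of 14 antioxidant probe sets in each of 3 WT (blue) and 3 Pxmp2-/- (red) mice, with symbols for mouse 1, 2 and 3, a line at the mean and a bar for the SD. The top row holds the 7 genes with an unadjusted p under 0.05 in a probe set, such as Mgst3 and Hmox1, and the bottom row the genes shown whatever their values, such as Cat and Keap1.

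Read against the promoters printed above, the 6 measured genes with the Nrf2 core letters before their start had no common direction. Their bright probe sets gave -0.08 for Gclm, 0.12 for Gstm5, 0.06 for Mgst1, -0.02 for Nfe2l2, -0.11 for Sod1 and 0.04 for Txnrd1. None of these differed past the threshold. The core also stood before 11.5% of all genes, and Hmox1, Gclc and Gsr had no window. Nrf2 activity was not tested.

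By compartment, the 10 tested probe sets of the endoplasmic reticulum enzymes had a median log2 difference of 0.066, with 8 higher and 2 lower. That is 80.0% higher, against 42.7% of all tested probe sets, or 49.8% of all tested after quantile normalization. The 10 come from 7 genes, with several probe sets each for Prdx4 and Mgst3. The 13 of mitochondrial enzymes had a median of -0.063, or -0.012 after quantile normalization, with 6 higher and 7 lower in both. The 35 of cytosolic enzymes had a median of 0.0045, with 19 higher and 16 lower, and this median turned to -0.0047 after median centring. The 2 probe sets of catalase, the only enzyme counted here as peroxisomal, had a median of 0.077. The 3 of the secreted enzymes Sod3 and Gpx3 had a median of 0.040. These are descriptions, and no compartment was tested against another. In all of them 0 probe sets passed the adjusted threshold with limma.

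Whether probe sets of the same gene gave the same answer limited what could be said of single enzymes. Of the 20 genes with several tested probe sets, 7 had the same sign in all and 13 had opposite signs, mostly around differences near 0. Among the 7 genes with an unadjusted p under 0.05 in some probe set, 5 had several tested probe sets, and of these Mgst3 was the only one whose probe sets all had the same sign. Sod1 was the only gene with 2 probe sets under that p, and they differed in sign.

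**Figure D4:**
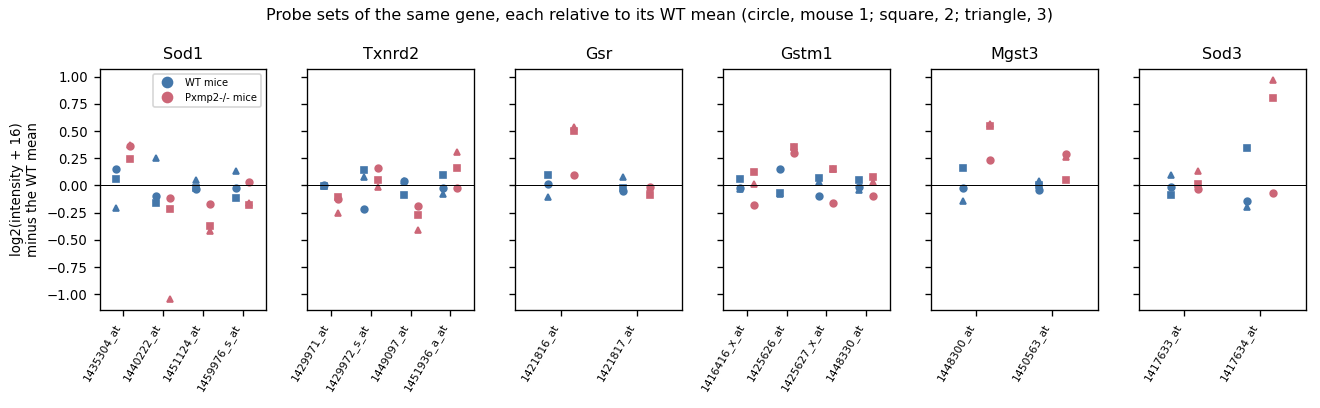
Level of each mouse relative to the WT mean of the same probe set (y axis, log2(intensity + 16)) for every tested probe set of 6 genes, with WT mice in blue and Pxmp2-/- mice in red. The Sod1 probe sets 1435304_at and 1451124_at separate the groups in opposite directions, while both Mgst3 probe sets have the Pxmp2-/- mice above the WT mice.

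The wider pathway was read from lists of genes that are no members. Of 63 tested probe sets of other glutathione and thioredoxin genes, 0 passed the adjusted threshold. At an unadjusted p under 0.05, 2 were higher (3.17%, against 6.12% of all tested probe sets) and 7 lower (11.1%, against 10.5%), the latter 5 after quantile normalization. Ggt5, which splits glutathione and leukotriene C4 outside cells, was the lowest of them. Its 1418216_at read 529, 570 and 642 in WT mice and 371, 415 and 342 in Pxmp2-/- mice. The groups did not overlap, and the difference was -0.60 ± 0.11 (SE), adjusted p = 0.133. A dim Ggt5 probe set gave -0.77 (adjusted p = 0.144) and the brightest 0.09 (adjusted p = 0.767), so the gene's probe sets did not share a sign.

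For other genes linked to Nrf2, 24 probe sets held 0 that passed, with 0 higher and 3 lower at an unadjusted p under 0.05. The 3 are 12.5%, near the 10.5% of all tested probe sets. Mafg, a partner of Nrf2 on DNA, gave -0.49 (adjusted p = 0.161) in 1 probe set and 0.14 in another. Blvrb, a biliverdin reductase, gave -0.24 (adjusted p = 0.232). Genes that supply NADPH, the electron source of both reductases, had 30 tested probe sets. Of these 0 passed and 0 had an unadjusted p under 0.05, and their median difference was -0.019. After quantile normalization 1 was higher at that p and the median was 0.0026.

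Genes whose products make peroxide or superoxide had a median of 0.12 over 32 tested probe sets, with 0 past the adjusted threshold. At an unadjusted p under 0.05, 10 were higher (31.2%, against 6.12% of all tested probe sets) and 3 lower (9.38%, against 10.5%). Cybb, the catalytic subunit of the phagocyte NADPH oxidase, read 294, 248 and 294 in WT mice and 598, 369 and 473 in Pxmp2-/- mice in its brightest probe set. All Pxmp2-/- mice lay above all WT mice, by 0.73 ± 0.17 (SE, adjusted p = 0.173). Its other probe sets gave 0.91 (adjusted p = 0.122) and 0.49 (adjusted p = 0.222), and the oxidase subunit gene Ncf4 gave 0.66 (adjusted p = 0.234). Another subunit gene, Ncf1, gave 0.39 in 1 probe set and -0.12 in another. Several of the 10 higher probe sets, all of those of Cybb among them, thus read this single oxidase. The macrophage marker sums given above moved the same way as this phagocyte oxidase, and their part in it was not tested. Among peroxisomal oxidases, Acox3 gave 0.37 and 0.23 (adjusted p = 0.209 and 0.362) and Pipox gave 0.31 (adjusted p = 0.209). The others tested were nearer to level, with 0.07 for Acox2, 0.17 for Dao, 0.17 for Uox, and -0.13 and 0.09 for Ddo. Lower were Lox, which releases peroxide as it cross-links collagen, at -0.43 (adjusted p = 0.183) in 1 probe set but 0.00 in another, and xanthine dehydrogenase, Xdh, at -0.33 (adjusted p = 0.26). Ero1b was counted on both sides, with 0.38 (adjusted p = 0.191), -0.39 (adjusted p = 0.278) and 0.09 in its probe sets. Ero1a gave 0.38 (adjusted p = 0.27), 0.01 and -0.14, and Duox1 gave 0.26 (adjusted p = 0.282).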

How the data were processed

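The authors deposited linear intensities of 6 biotin-labelled Affymetrix arrays in 1 table. Neither the labels nor the table name the method of probe summary or scaling. Groups and replicate numbers came from the sample titles, and 0 columns were unmatched. Intensities were taken as log2(intensity + 16) without further scaling, and a probe set was tested where its mean exceeded the 40th percentile (6.23), which left 27022. The 2 genotypes were fitted in limma 3.58.1 (R 4.3.3, lmFit and eBayes). Two-sided p-values were adjusted by Benjamini-Hochberg over the 27022. The procedure was tested on simulated data. The members and gene lists were chosen with earlier results of these data known, and families and compartments follow textbook roles. Values for each mouse were given for the lowest-p probe set of members with an unadjusted p under 0.05, and for Cat, Sod1, Gstk1, Gpx1, Nqo1, Hmox1, Nfe2l2 and Keap1 in their brightest probe set. Others named with such values were singled out after seeing them. Symbols came from the platform annotation, and all 40 matched the RefSeq table of GRCm38.p6. Same-numbered mice did not deviate together (0 of 3 correlations over 0.1), so numbers were not taken as pairs. Alternatives covered scaling, pseudocount, level filter, choice of probe sets, variance trend, replicate block and leaving out each mouse.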

Additional observations from a re-analysis of the deposited data

How the results depend on the processing

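No antioxidant probe set passed the adjusted threshold under any of the 16 alternatives. All of the 218 recomputed differences of the 14 probe sets given by mouse stayed above an adjusted p of 0.05, the lowest being 0.0875 for Gsr without Pxmp2-/- 1, and 215 kept their sign. The 3 that turned were all of Nfe2l2: 0.02 after quantile normalization, 0.055 without Pxmp2-/- 2 and 0.0598 without WT 1. The calls over all probe sets, 17 as reported, were 5 with the brightest probe set of each gene, 34 with a mean-variance trend, 1 with no filter and 1 with the replicate number as a block. Without single mice they ran from 1 (without WT 3, Pxmp2-/- 2 or Pxmp2-/- 3) to 33 (without Pxmp2-/- 1), with 6 and 2 without WT 1 and WT 2. The 5 higher antioxidant probe sets at an unadjusted p under 0.05 became 2 of 35 with the brightest probe set of each gene, and 3 to 7 without single mice, the lowest without WT 3 or Pxmp2-/- 3. The 3 lower ones became 1 (without Pxmp2-/- 3) to 7 (without Pxmp2-/- 1). The replicate block gave 7 and 4. The median antioxidant difference, 0.00958, was -0.012 with brightest probe sets, 0.0231 with no filter and 0.0509 after quantile normalization, and ran from -0.0142 without WT 1 to 0.0165 without WT 2. Background correction and scan batch could not be varied from this table. Dim probe sets, such as those of Slc7a11 and Gpx2, set no limit on a change.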

Other observations

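On the second principal component of all tested probe sets, which held 18.5% of the variance, Pxmp2-/- mouse 1 stood at 26.7 and the other 5 mice between -15.7 and 6.61. On the first, which held 40.4%, the WT mice stood between -26.78 and -13.29 and Pxmp2-/- mice 2 and 3 at 22.41 and 28.45. Pxmp2-/- mouse 1 lay between them, at 3.49. The values without that mouse were looked at after seeing this. For Mgst3 the log2 difference of 1448300_at was then 0.55 (limma adjusted p = 0.1). For Gsr 1421816_at it was 0.52 (adjusted p = 0.0875), for Sod1 1451124_at -0.39 (adjusted p = 0.106) and for Keap1 1450746_at -0.46 (adjusted p = 0.139). These 4 were larger in size than with all 6 mice. Most others of the 14 recomputed probe sets grew too. Txnrd2 1449097_at was then -0.34, Gstm1 1425626_at 0.35, Cat 1416429_a_at 0.10 and Sod1 1459976_s_at -0.17. Gpx1 1460671_at was 0.11, Nqo1 1423627_at -0.27 and Nfe2l2 1416543_at -0.034. The only smaller ones were -0.18 for Gstt1 1418186_at (adjusted p = 0.307), 0.26 for Hmox1 1448239_at (adjusted p = 0.226) and -0.003 for Gstk1 1452823_at (adjusted p = 0.989). None passed.

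The antioxidant probe sets that varied most between mice of the same group were Sod3 1417634_at, with an SD of 0.447 log2 within groups, Sod1 1440222_at with 0.395, Gclc 1424296_at with 0.324, Prdx4 1416166_a_at with 0.285 and Keap1 1450746_at with 0.281. For Gclc the SD was 0.441 among the Pxmp2-/- mice and 0.122 among the WT mice, and for Keap1 0.389 and 0.0796, whereas for Prdx4 it was 0.181 and 0.361. Over all 67 tested antioxidant probe sets the SD was larger among the Pxmp2-/- mice in 32 and among the WT mice in 35.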
